A study of Mus musculus with 13 samples.

Results

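The genes described here encode the proteins of the mitochondrial ribosome (mitoribosome). They are called MRP genes below and were taken by name: every gene of the deposited count table whose symbol is Mrpl or Mrps followed by a number, with pseudogenes left out. This gave 78 of the 35013 genes in the table, 49 named for the large subunit (Mrpl) and 29 for the small subunit (Mrps), and all 78 passed the filter on low counts that left 16468 genes for testing. The RNA came from the kidneys of 13 female mice in which tamoxifen-inducible Cre, driven from the megalin (Lrp2) gene, switched on uracil phosphoribosyltransferase from 1 allele (Uprt flox/+), so that RNA made in megalin-expressing proximal tubule cells during 4-thiouracil treatment could be biotinylated, captured and, after poly-A selection, sequenced. The 4 Spns1 KO mice carried Spns1 flox/flox with this driver, a genotype meant to delete the lysosomal transporter SPNS1 in proximal tubules. The 5 WT mice and the 4 iron-overloaded mice (FeO) had the genotype label Spns1 WT and, by the study's methods, the alleles Spns1 flox/+, so both carried the same Cre and Uprt alleles and 1 floxed Spns1 allele. FeO mice had received 12 mg of iron as iron sucrose on each of 3 days and were euthanized 1 week later. The labels give no ages.

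Mitochondrial ribosomes translate the few mRNAs of the mitochondrial genome, all of which encode membrane subunits of the respiratory chain and ATP synthase. Their RNA is made inside the organelle, but all of their proteins are encoded in the nucleus, made in the cytosol and imported. Part of these proteins descend from the bacterial ribosome and part were added during the evolution of mitochondria. Assembly needs GTPases, RNA helicases and methyltransferases, and a few small-subunit and large-subunit proteins hold iron-sulfur clusters at their contacts. The proximal tubule is among the tissues richest in mitochondria, since it reabsorbs solutes by active transport. The 2 comparisons with WT ask whether the loss of SPNS1 and iron loading change the newly made RNA of this set in the same way.

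The promoters of these genes are known for binding sites of NRF1 and of the ETS factor GABP, so the stretch from 250 bases before to 50 after each start site (RefSeq, GRCm38.p6) was searched on both strands for fixed letters. A promoter was found for 69 of the 78 genes. Of these, 3 (4.35%) held the NRF1 letters, GCGCA followed directly by TGCGC, against 1.07% of all 27025 genes with a promoter in that table and 1.99% of the 12345 that were also tested here. The ETS and GABP letters CCGGAAGT stood in 12 (17.4%), against 4.31% of all and 7.65% of the tested genes, and the YY1 letters, AAGATGG followed directly by CGGC, in 5 (7.25%), against 0.755% and 1.47%. The SP1 letters GGGCGG were in 49.3%, against 38.2% and 62.8%, and the TATA letters TATAAA in 7.25%, against 15.7% and 10.5%. The CRE letters TGACGTCA stood in 2 (2.9%), against 2.03% and 3.18%. Promoters of 4 genes are shown because they stand for the kinds met in the results: Mrpl52, with the largest rise in Spns1 KO, Mrpl39, with a smaller rise in both models, Mrps27, upregulated in FeO but not called in Spns1 KO, and Mrpl34, with the largest rise in FeO. They lie at chr14:54426659-54426958 (plus strand), chr16:84735195-84735494 (minus strand), chr13:99344536-99344835 (plus strand) and chr8:71464676-71464975 (plus strand). Capitals mark the NRF1 or the ETS and GABP letters on either strand, and Mrpl34 holds neither.
Mrpl52: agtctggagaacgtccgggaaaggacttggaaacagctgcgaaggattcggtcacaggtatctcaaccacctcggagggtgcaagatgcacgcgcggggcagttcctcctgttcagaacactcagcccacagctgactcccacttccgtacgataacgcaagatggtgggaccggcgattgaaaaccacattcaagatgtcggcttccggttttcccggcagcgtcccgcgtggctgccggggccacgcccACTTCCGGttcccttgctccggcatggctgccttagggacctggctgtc
Mrpl39: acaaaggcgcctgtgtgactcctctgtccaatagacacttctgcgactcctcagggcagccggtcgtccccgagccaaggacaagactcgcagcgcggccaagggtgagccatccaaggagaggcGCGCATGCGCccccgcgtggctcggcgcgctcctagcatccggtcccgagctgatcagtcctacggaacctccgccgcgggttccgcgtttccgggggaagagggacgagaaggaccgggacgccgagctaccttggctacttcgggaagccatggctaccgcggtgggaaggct
Mrps27: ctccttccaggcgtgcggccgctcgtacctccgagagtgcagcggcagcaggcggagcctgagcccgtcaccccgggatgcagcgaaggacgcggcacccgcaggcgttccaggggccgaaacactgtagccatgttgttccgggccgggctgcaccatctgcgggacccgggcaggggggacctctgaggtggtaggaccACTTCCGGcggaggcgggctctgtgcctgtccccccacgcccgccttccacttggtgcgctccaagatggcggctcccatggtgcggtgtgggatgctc
Mrpl34: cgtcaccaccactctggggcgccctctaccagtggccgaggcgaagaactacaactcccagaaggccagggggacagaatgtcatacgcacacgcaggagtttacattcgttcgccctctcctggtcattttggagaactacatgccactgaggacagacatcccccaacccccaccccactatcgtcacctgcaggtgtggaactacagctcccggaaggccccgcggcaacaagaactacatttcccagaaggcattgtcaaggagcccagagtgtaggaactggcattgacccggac

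Library totals ran from 31809135 to 71296474 estimated counts in Spns1 KO, from 23068023 to 37362311 in WT and from 25986133 to 29981814 in FeO. Levels are given as CPM, the count as a share of the library total after scaling with TMM factors. Spns1 itself had 39, 44.5, 36.6 and 59 CPM in Spns1 KO, 57.2, 61.4, 57.6, 39.2 and 62.9 in WT, and 58.7, 56.7, 39 and 45.9 in FeO. The library labelled Spns1 KO 4 thus lay among the WT values and WT 4 among the Spns1 KO values, and the difference between Spns1 KO and WT did not pass the test (log2 fold change -0.31 ± 0.18 SE, edgeR adjusted p = 0.225). A gene-level count does not show which exons were read, so this is a weak check of the labels, and results are also given without those libraries. The summed CPM of 10 proximal tubule markers was 8230 to 9820 in Spns1 KO, 4250 to 5960 in WT and 2390 to 6660 in FeO, with none at 0. The 10 markers of the loop, distal tubule and collecting duct summed to 3540 to 4620, 2060 to 4600 and 2290 to 5810, the 8 podocyte and endothelial markers to 466 to 523, 315 to 437 and 414 to 876, and the 6 fibroblast markers to 158 to 203, 93.2 to 138 and 72.8 to 160, so RNA of other kidney cell types was detected in every group. The 10 immune markers summed to 85.6 to 114, 55.7 to 68.6 and 88.2 to 133, and the 3 erythroid markers to 32.8 to 128, 6.64 to 27.4 and 20.7 to 157. Whether these shifts have a part in the results below was not tested, and in bulk RNA fewer cells of a type and less RNA per cell cannot be told apart.

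The MRP genes were more abundant in the captured RNA of both models than in WT, with the higher sums after iron loading. Together they took 1670, 1584, 1393, 1291 and 1668 CPM in WT, 2062, 2126, 2256 and 1494 CPM in Spns1 KO, and 2712, 2279, 3033 and 2332 CPM in FeO. All FeO libraries and 3 of the 4 Spns1 KO libraries lay above every WT library, and the library labelled Spns1 KO 4 lay inside the WT range. The median over the 78 genes of the log2 difference from the WT mean was 0.73, 0.82, 0.85 and 0.13 in Spns1 KO and 1.02, 0.81, 1.24 and 0.83 in the FeO libraries, while single WT libraries were between -0.20 and 0.18. The same median over all genes tested stayed between -0.06 and 0.02 in every library. For the MRP genes the medians of Spns1 KO 1, 2 and 3 overlapped those of the FeO libraries.

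**Figure D1:**
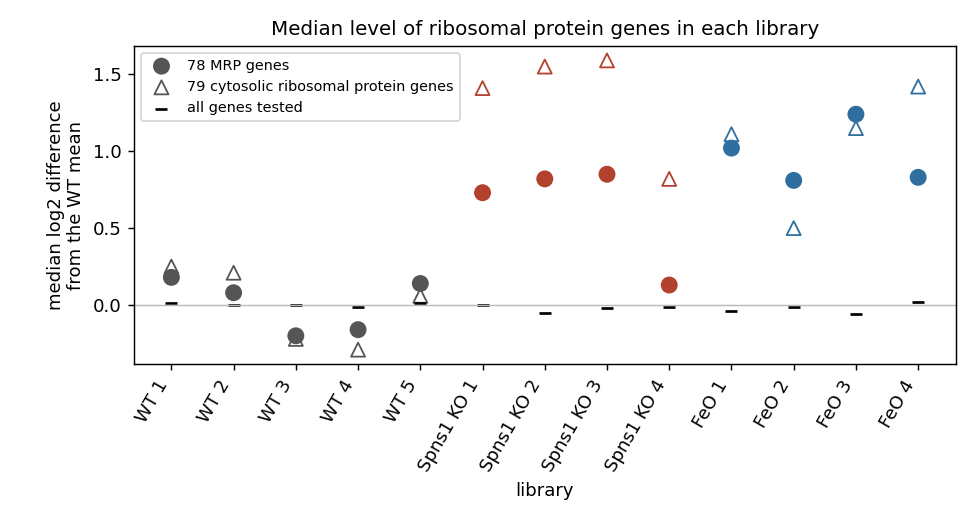
Median log2 difference from the WT mean (vertical axis) in each of the 13 libraries (horizontal axis) for the 78 MRP genes (filled circles), the 79 cytosolic ribosomal protein genes (open triangles) and all genes tested (dashes), coloured by group. The MRP median of the library labelled Spns1 KO 4 is 0.13, beside 0.73 to 0.85 in the other Spns1 KO libraries and 0.81 to 1.24 in FeO.

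A gene was called up or down when its edgeR quasi-likelihood p, adjusted across all genes tested, was under 0.05 and the log2 change exceeded 0.5 in size. In Spns1 KO 49 of the 78 MRP genes (62.8%) were upregulated and 1, Mrpl38, was downregulated, against 14.0% and 7.55% of all genes tested. In FeO 64 (82.1%) were upregulated and 1, again Mrpl38, was downregulated, against 22.4% and 19.7% of all genes. The median log2 fold change was 0.66 in Spns1 KO (all genes -0.05) and 1.03 in FeO (all genes -0.01), and 73 and 74 of the 78 values were above 0. The comparisons share the WT libraries. Of the 78 genes, 46 were upregulated in both models, 18 in FeO alone, 3 in Spns1 KO alone and 10 in neither, and Mrpl38 was downregulated in both. This split was not made for all genes, so its background is not known. All FeO libraries lay above all WT libraries for 64 MRP genes, against 16.9% of all genes, and all Spns1 KO libraries did so for 22, against 13.1%. In the 3 other Spns1 KO libraries together 61 MRP genes lay above every WT library, and the library labelled Spns1 KO 4 joined them for 22 of these. That count was not made for all genes. Without the library labelled Spns1 KO 4 the number upregulated in Spns1 KO was 57 with a median of 0.77, and without that library and WT 4 it was 54 with a median of 0.74. In both fits 18% of all genes were upregulated. Leaving out Spns1 KO 1, 2 or 3 gave 30, 28 and 27 (9.59%, 9.91% and 9.18% of all genes), and leaving out both WT 3 and WT 4 gave 20 (7.52% of all genes). FeO was less dependent on single libraries, with 57 to 67 genes upregulated when each library was left out in turn. The lowest count came without FeO 3 (20.1% of all genes) and the highest without FeO 2 (24.2%).

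**Figure D2:**
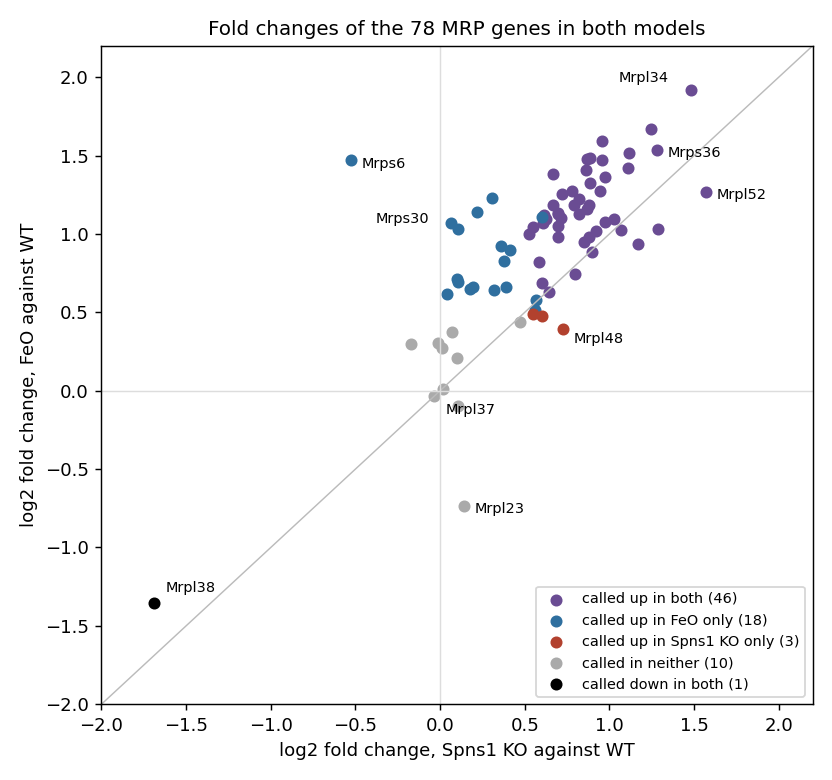
Log2 fold change of each of the 78 MRP genes in Spns1 KO against WT (horizontal axis) and in FeO against WT (vertical axis), with colours for the calls in the 2 comparisons and a diagonal line of equal values. Both axes share the WT libraries, and a call in 1 model alone is not by itself a difference between the models. Most genes lie above the diagonal, Mrps6 (-0.53 and 1.47) farthest, and Mrpl38 (-1.69 and -1.36) lies apart at the lower left.

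The libraries also differed in how they weighted transcripts by length. Over all genes, the slope of the log2 level on transcript length was 0.07 to 0.30 per doubling in WT, -0.13 to 0.03 in Spns1 KO and -0.19 to -0.09 in FeO, steepest in WT 3 (0.25) and WT 4 (0.30). MRP transcripts are short, with a median of 1302 bases beside 2923 for all genes tested, so the calls were set against genes of like length. Below 1000 bases 21 of 25 MRP genes were upregulated in the knockouts and 23 in FeO, against 40.6% and 48.5% of all genes of that length. From 1000 to 2000 bases the numbers were 16 and 22 of 28, against 25.2% and 41.9%. Above 2000 bases they were 12 and 19 of 25, against 7.7% and 13.7%. The MRP share was above that of all genes in each length class of both comparisons. After each library was corrected for a smooth dependence on length and GC, 20 MRP genes were upregulated and 2 downregulated in Spns1 KO (median 0.39, 10.7% of all genes up) and 55 and 2 in FeO (median 0.68, 20.9% of all genes up). With that trend removed and the library labelled Spns1 KO 4 left out, 39 were upregulated and 3 downregulated in Spns1 KO (16.1% and 12.2% of all genes).

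**Figure D3:**
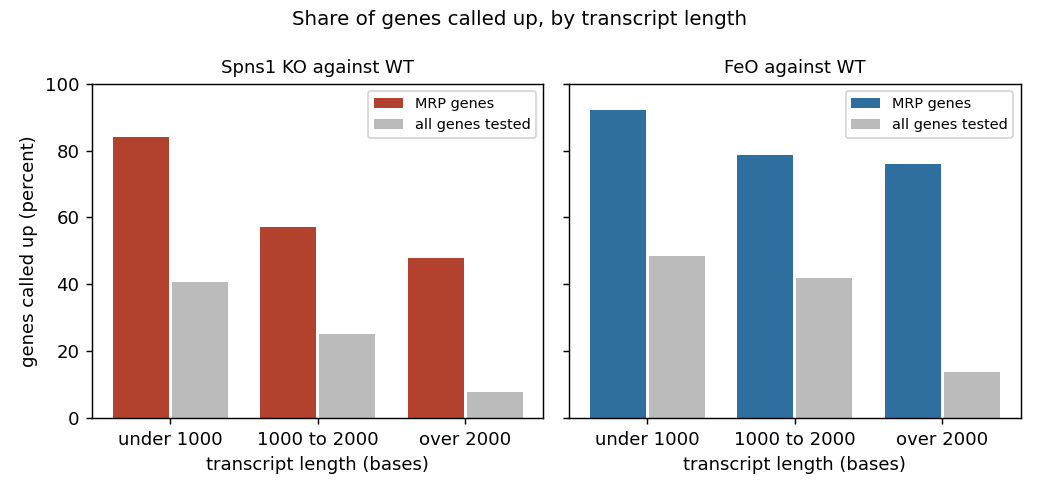
Percent of genes called up (vertical axis) in classes of transcript length in bases (horizontal axis), for MRP genes (coloured bars) and all genes tested (grey bars), in Spns1 KO and in FeO against WT. The classes hold 25, 28 and 25 MRP genes, and for all genes the share falls as transcripts lengthen, from 40.6% to 7.7% for Spns1 KO and, for FeO, from 48.5% to 13.7%.

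The smallest p values in Spns1 KO belonged to Mrpl52, Mrps21, Mrps36, Mrpl21, Mrpl34 and Mrps24. Mrpl52, a mitochondrion-specific protein of the central protuberance of the large subunit, had 6.45, 5.85, 4.57, 4.45 and 6.02 CPM in the WT mice, 14.7, 19, 16.8 and 14.6 in Spns1 KO, and 12.2, 7.98, 13.7 and 18.9 in the FeO mice. All libraries of both models lay above WT, and the log2 fold change was 1.57 ± 0.22 (SE, edgeR adjusted p = 0.000473) in Spns1 KO and 1.27 ± 0.22 (edgeR adjusted p = 0.000667) in FeO. Mrps21, the homolog of bacterial S21 in the small subunit, rose by 1.29 ± 0.19 (edgeR adjusted p = 0.000505) in Spns1 KO and 1.03 ± 0.19 (edgeR adjusted p = 0.000802) in FeO. Its WT values were 12, 10.3, 7.75, 9.75 and 10.6 CPM, its Spns1 KO values 26.4, 27.3, 28.2 and 16.7, and its FeO values 17.5, 17.6, 23.7 and 23.6. As for most of these genes, the library labelled Spns1 KO 4 was nearest to WT, and over all 78 genes it was the lowest of the Spns1 KO libraries for 69. Mrpl21, the homolog of bacterial L21, had 9.56, 8.57, 6.39, 7.74 and 8.07 CPM in the WT mice, 17.5, 20.2, 16 and 14 in Spns1 KO and 16, 11.5, 19.4 and 18.7 in the FeO libraries, with log2 fold changes of 1.07 ± 0.18 (edgeR adjusted p = 0.00114) and 1.02 ± 0.18 (edgeR adjusted p = 0.000771). Both models were above WT in every library. Mrps24, the homolog of bacterial S3, had 7.68, 8.9, 8.13, 6.85 and 8.53 CPM in the WT mice, 17.8, 19.1, 18.8 and 9.65 in Spns1 KO and 19.3, 14, 18.5 and 16.8 in the FeO mice.

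Mrpl34, the homolog of bacterial L34 and one of the smallest proteins of the large subunit, showed the largest rise in FeO. It had 5.17, 4.81, 4.22, 4.84 and 4.71 CPM in the WT mice, 15.1, 15.3, 17 and 5.61 in Spns1 KO, and 19.8, 16.2, 23.9 and 12.1 in the FeO mice. The log2 fold change was 1.92 ± 0.27 (SE, edgeR adjusted p = 0.000393) in FeO and 1.48 ± 0.27 (edgeR adjusted p = 0.00176) in Spns1 KO, where the library labelled Spns1 KO 4 sat just above WT. Mrps36 carries a ribosomal name but is now known as a subunit of the 2-oxoglutarate dehydrogenase complex of the citric acid cycle. It moved with the ribosomal genes, from 7.08, 6.99, 4.47, 6.54 and 7.22 CPM in WT to 16.8, 16.4, 19.9 and 9.79 in Spns1 KO (log2 fold change 1.28 ± 0.22, edgeR adjusted p = 0.00111) and 17, 14.7, 24.1 and 19.3 in FeO (1.54 ± 0.22, edgeR adjusted p = 0.000393). The other genes with the smallest p in FeO were Mrpl54, Mrps33, Mrpl13 and Mrpl57, with log2 fold changes of 1.59 ± 0.22, 1.52 ± 0.21, 1.19 ± 0.17 and 1.48 ± 0.22. Mrpl54 had 4.55, 4.25, 3.31, 4.45 and 5.13 CPM in the WT mice, 8.48, 9.33, 9.99 and 5.83 in Spns1 KO and 17.9, 9.6, 11.9 and 12.9 in the FeO mice. Mrps33 had 8.96, 9.46, 6.9, 8.34 and 10.6 CPM in the WT mice, 18.4, 21.3, 23 and 14.1 in Spns1 KO and 23.9, 16.2, 35 and 26.2 in the FeO mice. Each of these 4 genes was also upregulated in Spns1 KO, and for each all FeO libraries lay above all WT libraries. Removing the length and GC trend ended the Spns1 KO calls of Mrpl54 (0.25, edgeR adjusted p = 0.454) and Mrpl13 (0.45, under the fold limit), and those of Mrpl34 (0.82, edgeR adjusted p = 0.0666) and Mrps24 (0.51, edgeR adjusted p = 0.0565), while the FeO calls of all of these were kept. Mrpl13, the homolog of bacterial L13, had 13.5, 13.8, 9.83, 11.3 and 13.5 CPM in the WT mice, 20.7, 24.7, 24.1 and 16.2 in Spns1 KO and 29.9, 20.9, 32 and 30 in the FeO mice. Mrpl57, found only in mitochondria, had 5.85, 5.11, 4.54, 4.8 and 5.75 CPM in the WT mice, 9.02, 11.6, 11.9 and 5.57 in Spns1 KO and 15.7, 13.3, 17.9 and 11.3 in the FeO libraries, so its Spns1 KO libraries overlapped WT.

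**Figure D4:**
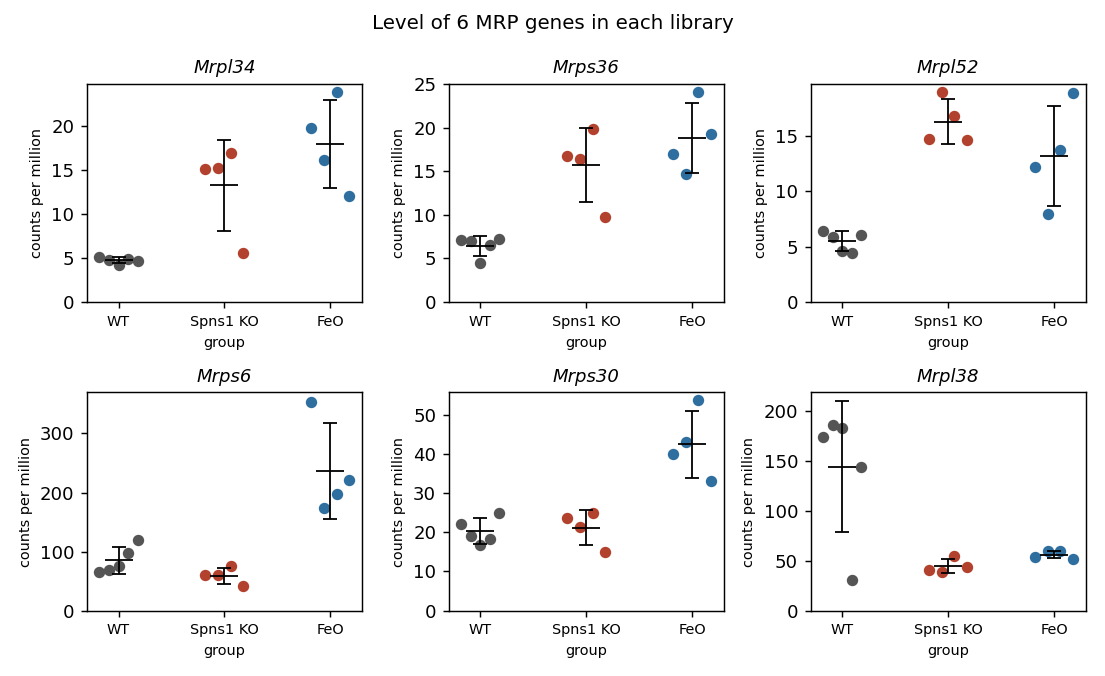
CPM (vertical axes, from 0) of 6 MRP genes in WT (n = 5), Spns1 KO (n = 4) and FeO (n = 4), with 1 point per library and bars for the mean ± SD. Mrpl34, Mrps36 and Mrpl52 rose in both models, Mrps6 and Mrps30 in FeO, and Mrpl38 was high in 4 of the 5 WT libraries.

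By place in the ribosome the rise was spread over both subunits. Of the 30 large-subunit proteins with bacterial homologs, 18 were upregulated in Spns1 KO (median 0.61) and 23 in FeO (median 1.00). The 21 large-subunit proteins classed as mitochondrion-specific, which include Mrps18a and Mrps30 despite their names, had 15 upregulated in Spns1 KO (median 0.70) and 18 in FeO (median 1.07), with Mrpl38 downregulated in both. Among the 16 small-subunit proteins with bacterial homologs 10 and 12 were upregulated (medians 0.76 and 1.03). The 10 mitochondrion-specific proteins of the small subunit had 5 upregulated in Spns1 KO (median 0.51) and all 10 in FeO (median 0.89). Of all genes tested 14.0% were upregulated in Spns1 KO (median -0.05) and 22.4% in FeO (median -0.01). No test compared these classes with each other.

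The proteins of the L7/L12 stalk, which recruits translation factors, were Mrpl10, Mrpl11 and Mrpl12, all called up in both models (medians 0.70 and 1.13). The FeO calls were kept in every fit that left out 1 library and with the length and GC trend removed. In Spns1 KO leaving out 1 library ended those of Mrpl10, Mrpl11 and Mrpl12 in 4, 3 and 1 of 13 fits, and with the trend removed Mrpl10 (0.40, edgeR adjusted p = 0.0767) and Mrpl12 (0.57, edgeR adjusted p = 0.102) were no longer called. Mrpl12 had 30.4, 26.2, 19.7, 23.8 and 25.1 CPM in the WT mice, 54.4, 53.2, 64.4 and 22.6 in Spns1 KO and 72, 70.7, 86.6 and 48.8 in the FeO mice. In the library labelled Spns1 KO 4 it lay inside the WT range, and the log2 fold change was 0.96 ± 0.25 (edgeR adjusted p = 0.0123) in Spns1 KO and 1.47 ± 0.25 (edgeR adjusted p = 0.000624) in FeO. Mrpl10 ranged from 23.3 to 32.2 CPM in the WT mice, from 29.3 to 51.1 in the knockouts and from 49.5 to 72.6 in FeO. Of the 5 proteins of the central protuberance 4 were upregulated in the knockouts and 3 in FeO, and Mrpl38 was downregulated in both. Mrpl46, among those upregulated in both, had 9.18 to 15.3 CPM in the WT mice, 13.6 to 21.9 in Spns1 KO and 20.8 to 33.7 in FeO. Around the exit tunnel, where new chains leave toward the inner membrane, 1 of 6 was upregulated in Spns1 KO (Mrpl24) and 3 in FeO (Mrpl17, Mrpl22 and Mrpl45). That is 16.7% and 50%, against 14.0% and 22.4% of all genes. Mrpl24 rose by 0.55 ± 0.13 in Spns1 KO (edgeR adjusted p = 0.00774), while in FeO its value of 0.49 ± 0.13 fell just short of the fold limit (edgeR adjusted p = 0.00705), and with the trend removed its Spns1 KO call ended (0.29, edgeR adjusted p = 0.0579). Mrpl22 had 6.57 to 10.9 CPM in the WT mice, 9.32 to 15.9 in Spns1 KO and 16.1 to 26.7 in FeO.

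The treatment protocol in the labels describes Spns1 deletion as a genetic and iron sucrose as a second model of iron overload, so the 5 proteins that bind iron-sulfur clusters in the assembled ribosome, Mrps6, Mrps16, Mrps18a, Mrps18c and Mrps25, were read as a group. In FeO all 5 were upregulated (median 1.22), and in Spns1 KO 4 were, all but Mrps6 (median 0.82). Of all 78 MRP genes 82.1% were upregulated in FeO (median 1.03) and 62.8% in Spns1 KO (median 0.66), against 22.4% and 14.0% of all genes. Whether the 5 differ from the other MRP genes was not tested. Leaving out 1 library ended the Spns1 KO calls of Mrps16 and Mrps18a in 3 and 5 of 13 fits. Mrps16 had 8.3, 8.13, 5.76, 4.7 and 10 CPM in the WT mice, 13.7, 16.3, 15.2 and 8.42 in Spns1 KO and 20.1, 17.5, 24.8 and 16 in the FeO libraries (log2 fold change 0.86 ± 0.24, edgeR adjusted p = 0.0182, and 1.41 ± 0.24, edgeR adjusted p = 0.000652). All FeO libraries lay above WT for it, and the Spns1 KO libraries overlapped WT. Mrps18a, which sits in the large subunit, had 11.4 to 17.3 CPM in the WT mice, 18.2 to 22.7 in Spns1 KO and 23.3 to 33.3 in FeO, with no overlap between either model and WT. Its Spns1 KO value of 0.52 ± 0.17 (edgeR adjusted p = 0.0346) became -0.01 with the length and GC trend removed, while its FeO value of 1.00 ± 0.17 (edgeR adjusted p = 0.000624) became 0.52. Mrps18b, the third relative of bacterial S18, is not among the ligands and had 0.11 ± 0.21 in Spns1 KO and 0.70 ± 0.21 in FeO (edgeR adjusted p = 0.0158), where the trend removal ended its call (0.24, edgeR adjusted p = 0.305). Mrps18c had 5.98 to 10 CPM in the WT mice, 16.2 to 19.9 in Spns1 KO and 8.79 to 20 in FeO, and with the trend removed its FeO value of 0.49 was under the fold limit. Mrps25 had 10.2, 10.1, 10.3, 13.7 and 9.92 CPM in the WT mice, 21.6, 20.9, 21.6 and 12.6 in Spns1 KO, and 27.7, 16.7, 26 and 31 in the FeO libraries, but 68.9% of the 31-base stretches of its transcripts also occur in Nr2c2 on the opposite strand. Nr2c2 itself was downregulated in both models (log2 fold change -0.58 ± 0.18 in Spns1 KO and -0.71 ± 0.18 in FeO).

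Compared directly, 8 MRP genes were lower in Spns1 KO than in FeO and 0 were higher, against 8.10% and 6.76% of all genes tested, so the 10.3% of MRP genes called down here is near the background. The median log2 difference was -0.37 (all genes 0.03), and 62 of the 78 values were below 0. Without the library labelled Spns1 KO 4 the median was -0.23 (all genes -0.01), and 5 MRP genes were called lower, against 5.67% of all genes. Mrps6, the homolog of bacterial S6, differed most, by -2.0 ± 0.26 (edgeR adjusted p = 0.0011). It had 64.6, 69.5, 75, 98.2 and 119 CPM in the WT mice, 59.6, 60.6, 74.8 and 41.8 in Spns1 KO, and 354, 173, 197 and 221 in the FeO mice. FeO libraries lay above all others (log2 fold change against WT 1.47 ± 0.24, edgeR adjusted p = 0.000566), while Spns1 KO overlapped WT (-0.53 ± 0.24, edgeR adjusted p = 0.126). With the length and GC trend removed Mrps6 was downregulated in Spns1 KO (-1.10, edgeR adjusted p = 0.0107). The gene spans chr16:92058270-92112227 on the plus strand, and its exons share 159 bases on the same strand with Slc5a3, the sodium-dependent inositol transporter. They also overlap Gm49711 on that strand, which was not among the genes tested and holds 18.4% of the 31-base stretches of Mrps6. Slc5a3 was downregulated in Spns1 KO (-1.29 ± 0.32, edgeR adjusted p = 0.00949) and was not called in FeO (-0.40 ± 0.31, edgeR adjusted p = 0.303). The part of shared reads in the Mrps6 values was not tested.

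The other 7 genes of this kind were Mrps30, Mrps23, Mrpl15, Mrpl44, Mrps27, Mrpl20 and Mrps2. Mrps30, a mitochondrion-specific protein that sits in the large subunit, had 22.1, 19.1, 16.8, 18.3 and 25 CPM in the WT mice, 23.7, 21.3, 24.9 and 15 in Spns1 KO, and 40, 43.1, 53.8 and 33.1 in the FeO mice. Its FeO libraries lay above all others, and its Spns1 KO libraries overlapped WT (FeO against WT 1.07 ± 0.18, edgeR adjusted p = 0.000667, Spns1 KO against WT 0.07 ± 0.18, edgeR adjusted p = 0.816, Spns1 KO against FeO -1.0 ± 0.20, edgeR adjusted p = 0.00606). Mrps23, of the small subunit, had 14.9 to 21.6 CPM in the WT mice, 13 to 22.4 in Spns1 KO and 29.7 to 43.9 in FeO, a difference between the models of -0.93 ± 0.19 (edgeR adjusted p = 0.00816). Mrpl15, the homolog of bacterial L15, had 13.8 to 22.3, 14.3 to 25.8 and 31.5 to 49.2 CPM, and differed by -0.92 ± 0.21 (edgeR adjusted p = 0.0114). Mrpl44, a large-subunit protein with an RNase III fold, had 14.1 to 19.1, 10.6 to 24 and 27 to 42.8 CPM, and differed by -0.92 ± 0.22 (edgeR adjusted p = 0.0145). In these 4 genes every FeO library lay above every WT and every Spns1 KO library. The calls of Mrps6 and of these 4 between the models were kept in each fit that left out 1 library and with the length and GC trend removed. Every Spns1 KO library lay below every FeO library for 9 of the 78 MRP genes, beside 1499 of all 16468 genes tested. Mrps27, a pentatricopeptide repeat protein of the small subunit, had 15.1 to 18.6 CPM in the WT mice, 12.2 to 20.6 in Spns1 KO and 21.8 to 34.2 in FeO (Spns1 KO against FeO -0.61 ± 0.18, edgeR adjusted p = 0.0381). Mrpl20 had 10.5 to 15.3, 12.9 to 25.5 and 25.4 to 44.9 CPM (-0.72 ± 0.23, edgeR adjusted p = 0.0456) and, unlike the others, was upregulated in Spns1 KO against WT too (0.67 ± 0.22, edgeR adjusted p = 0.0361), a call lost in 6 of 13 fits that left out 1 library and with the length and GC trend removed (0.11, edgeR adjusted p = 0.703). Mrps2 had 26.5 to 33.9, 21.9 to 37.7 and 39.2 to 60.3 CPM (-0.58 ± 0.19, edgeR adjusted p = 0.0494). Leaving out 1 library ended the calls of Mrps27, Mrpl20 and Mrps2 in 7, 9 and 11 of 13 fits. Removal of the length and GC trend ended the Mrps2 call between the models (-0.49, edgeR adjusted p = 0.0575) and kept those of Mrps27 and Mrpl20. Against WT, the FeO values of Mrps27 and Mrps2 (both 0.44) were then under the fold limit.

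Mrpl38, a mitochondrion-specific protein of the central protuberance encoded at chr11:116131817-116138868 on the minus strand, ran against the rest. It had 174, 186, 183, 31.1 and 144 CPM in the WT mice, 40.8, 39.1, 54.9 and 43.7 in Spns1 KO, and 54, 59.3, 59.6 and 51.6 in the FeO mice. WT 1, 2, 3 and 5 were high and WT 4 was the lowest of all 13 libraries, so the groups overlapped through that library alone. The log2 fold change was -1.69 ± 0.36 (edgeR adjusted p = 0.00448) in Spns1 KO and -1.36 ± 0.35 (edgeR adjusted p = 0.00683) in FeO, and both calls were kept when any 1 library was left out. Fbf1, a gene of the ciliary base that lies upstream of Mrpl38 on the same strand, had 533, 527, 554, 125 and 321 CPM in the WT mice, 55.2, 55.6, 76.2 and 175 in Spns1 KO, and 42.8, 107, 39 and 80.5 in the FeO mice. It was downregulated in both models as well (-2.19 ± 0.47, edgeR adjusted p = 0.00489, and -2.61 ± 0.48, edgeR adjusted p = 0.000897), and it too was lowest among WT libraries in WT 4. Fbf1 was looked at after the Mrpl38 values had been seen.

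The 10 MRP genes called in neither model were not a class of their own. Mrpl37, Mrps9, Mrpl33 and Mrps10 had values near 0 in Spns1 KO (from -0.03 to 0.11). In FeO Mrps17 (0.38 ± 0.13, edgeR adjusted p = 0.0252) and Mrps5 (0.44 ± 0.14, edgeR adjusted p = 0.0176) passed the p limit but not the fold limit, as Mrps5 did in Spns1 KO (0.47 ± 0.14, edgeR adjusted p = 0.0221). With the length and GC trend removed all of these were called up, Mrps17 with 0.73 (edgeR adjusted p = 0.00247) and Mrps5 with 0.71 (edgeR adjusted p = 0.00276) in FeO, and Mrps5 with 0.69 (edgeR adjusted p = 0.00478) in Spns1 KO. Mrpl37 had 45.8 to 59 CPM in the WT mice, 47.6 to 62.3 in Spns1 KO and 48.8 to 57.7 in FeO, and Mrps9 had 31.3 to 43.8, 38.4 to 43.1 and 39 to 42. The groups overlapped fully for both. The 3 genes called in Spns1 KO alone were Mrpl48, Mrpl24 and Mrpl9, and for none of them did the test between the models pass. Mrpl23 is uncertain: with 80.9 counts per library on average it was the least counted member, and the pseudogene Mrpl23-ps1, which shares sequence with it, had more (272.7). Alone, Mrpl23 had a FeO log2 fold change of -0.74 ± 0.49 (edgeR adjusted p = 0.225), and with the counts of both rows summed it had 0.79 (edgeR adjusted p = 0.00448). The summed level was 4.63 to 8.22 CPM in the WT mice, 11.3 to 15.7 in Spns1 KO and 8.6 to 12.2 in FeO. In all, 29 MRP genes share over 10% of their 31-base stretches with another gene, and of the other 49, 30 were upregulated in the knockouts and 41 in FeO.

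Levels within the set were uneven. Per kilobase of transcript the WT mean ran from 1.79 CPM for Mrps25 to 102 for Mrpl38 and 101 for Mrps6, with a median of 9.04. Mrpl42 came next at 45.3 CPM per kilobase. Mrpl42 had 33.7, 31.3, 24.9, 24.4 and 36.6 CPM in the WT mice, 55.5, 58.1, 54.4 and 57.2 in Spns1 KO, and 51.5, 37.6, 66.3 and 67.5 in the FeO libraries, with no overlap between WT and either model (0.90 ± 0.18, edgeR adjusted p = 0.00262, and 0.88 ± 0.18, edgeR adjusted p = 0.00135), though with the trend removed both values (0.44 and 0.42) were under the fold limit. The lowest after Mrps25 were Mrpl57 (1.81) and Mrpl17 (2.16), both with long annotated transcripts. Mrpl17 had 14.5 to 16.6 CPM in the WT mice, 14.8 to 24.1 in Spns1 KO and 22.6 to 33.2 in FeO, and was upregulated in FeO (0.83 ± 0.17, edgeR adjusted p = 0.00159). The median level of the set was 9.04 CPM per kilobase in the WT mice, 15.5 in Spns1 KO and 21.3 in FeO.

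The rest of the mitochondrial translation machinery was called up about as often as all genes tested, but most of its values lay above 0. Of 62 further genes, 10 were upregulated and 1 downregulated in Spns1 KO (median 0.25) and 15 and 2 in FeO (median 0.26), so 16.1% and 24.2% were upregulated against 14.0% and 22.4% of all genes. Downregulated were 1.61% and 3.23%, against 7.55% and 19.7% of all genes. In each comparison 47 of the 62 values were above 0, and the medians of all genes were -0.05 and -0.01. The median transcript of the 62 was 2275 bases, and of all genes above 2000 bases 7.7% and 13.7% were upregulated. The 5 mitoribosome proteins with other names had 3 members upregulated in Spns1 KO and 4 in FeO (medians 0.59 and 1.14). Gadd45gip1, a large-subunit protein also called CRIF1, rose by 0.79 ± 0.21 (edgeR adjusted p = 0.0162) and 1.32 ± 0.21 (edgeR adjusted p = 0.00055), Aurkaip1 by 0.76 ± 0.24 (edgeR adjusted p = 0.0349) in Spns1 KO and Chchd1 by 1.15 ± 0.20 (edgeR adjusted p = 0.000715) in FeO. Of 14 translation factors 3 were upregulated and 1 downregulated in each model. Tufm, the mitochondrial elongation factor that delivers aminoacyl-tRNA, went from 21.4 to 28.4 CPM in WT to 31.7 to 64.2 in Spns1 KO (1.11 ± 0.19, edgeR adjusted p = 0.00135) and 39.3 to 64.4 in FeO (1.12 ± 0.20, edgeR adjusted p = 0.000709). Mrrf, the ribosome recycling factor, rose in FeO (1.09 ± 0.22, edgeR adjusted p = 0.00138), and Mief1, which also encodes a micropeptide bound to assembling mitoribosomes, fell in Spns1 KO (-0.68 ± 0.13, edgeR adjusted p = 0.0019). Of 23 assembly factors 1 was upregulated in Spns1 KO, Mpv17l2 (0.81 ± 0.20, edgeR adjusted p = 0.01), and 7 in FeO, among them Mpv17l2 (1.12 ± 0.20, edgeR adjusted p = 0.000794) and Malsu1 (0.66 ± 0.17, edgeR adjusted p = 0.00591). Upregulated were thus 4.35% and 30.4% of the assembly factors, against 14.0% and 22.4% of all genes. Shared 31-base stretches made up 58.2% of Tufm, 40.4% of Gadd45gip1 and 40.2% of Malsu1. The methyltransferase-like factor Mettl17 had -0.69 ± 0.26 in Spns1 KO (edgeR adjusted p = 0.0681). Of 20 aminoacyl-tRNA synthetases and amidotransferase subunits, 3 were upregulated in Spns1 KO, including Gatb (0.86 ± 0.17, edgeR adjusted p = 0.00319) and Gatc (0.70 ± 0.15, edgeR adjusted p = 0.00495), and 1 in FeO, Fars2 (1.35 ± 0.23, edgeR adjusted p = 0.000665), with Mars2 downregulated (-0.63 ± 0.16, edgeR adjusted p = 0.00503). With the length and GC trend removed Mars2 had 0.30 in FeO, so its direction depends on that correction. The enzymes that charge mitochondrial tRNAs thus had 15% and 5% of their genes called up, beside the 14.0% and 22.4% of all genes.

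The genes that control mitochondrial biogenesis moved in both directions. Among 15 genes of mitochondrial transcription and its control, 3 were upregulated and 2 downregulated in Spns1 KO (median -0.15), and 2 and 6 in FeO (median -0.30), so 20% and 13.3% were upregulated against 14.0% and 22.4% of all genes. Downregulated were 13.3% and 40%, against 7.55% and 19.7% of all genes. Their transcripts are long (median 3656 bases), and of all genes above 2000 bases 9.94% and 24.7% were downregulated. The part of length in these falls was not tested. Of the 15, those upregulated were Slirp, Lrpprc and Esrra in Spns1 KO and Slirp and Esrra in FeO, Esrra encoding the nuclear receptor ERRα. Ppargc1a, the coactivator PGC-1α of mitochondrial biogenesis, had 288 to 432 CPM in the WT mice, 139 to 264 in Spns1 KO and 159 to 195 in FeO, with no overlap between WT and either model (-0.87 ± 0.20 in Spns1 KO, edgeR adjusted p = 0.00615). Its relative Pprc1 fell in FeO, from 25.2 to 41.9 CPM in WT to 10.3 to 19 (-1.41 ± 0.27, edgeR adjusted p = 0.00117). Nrf1 and Gabpa, which encode the factors whose letters were searched for above, fell in FeO by 0.55 ± 0.17 (edgeR adjusted p = 0.0146) and 0.54 ± 0.15 (edgeR adjusted p = 0.00936) on the log2 scale, and were not called in Spns1 KO. The 12 MRP genes with the ETS and GABP letters had 7 upregulated in Spns1 KO and 9 in FeO (medians 0.71 and 0.73), and the 57 without them 36 and 48 (medians 0.62 and 1.07). Slirp, which with Lrpprc stabilizes mitochondrial mRNAs, rose in both models (1.44 ± 0.27, edgeR adjusted p = 0.00201, and 1.45 ± 0.27, edgeR adjusted p = 0.000919), but 94.1% of its 31-base stretches are shared, 91.2% with Snw1 on the opposite strand. Of the 13 mRNAs encoded in the mitochondrion itself, the templates of this ribosome, 1 was upregulated in Spns1 KO and 3 in FeO (medians 0.48 and 0.28), 7.69% and 23.1% of the set, beside 14.0% and 22.4% of all genes. The first was mt-Co2, a cytochrome c oxidase subunit, with 4740 to 8180 CPM in the WT mice, 7580 to 15300 in Spns1 KO and 7320 to 20700 in FeO (0.95 ± 0.33, edgeR adjusted p = 0.0483, and 0.96 ± 0.33, edgeR adjusted p = 0.0273). The next gene by p in Spns1 KO, mt-Nd2, had 0.57 ± 0.28 (edgeR adjusted p = 0.15), and mt-Co3 rose in FeO (0.84 ± 0.28, edgeR adjusted p = 0.0253). All 31-base stretches of mt-Co2 and 99.9% of those of mt-Co3 also occur in other annotated genes, so their counts are uncertain, and the Spns1 KO call of mt-Co2 ended under the length and GC correction.

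The cytosolic ribosomal protein genes, the nearest set in kind, had a higher median in Spns1 KO than in FeO. For the MRP genes the order of the models was the reverse, and the cytosolic median was the higher in both models. Of 79, 72 were upregulated in each model, with medians of 1.34 for Spns1 KO and 1.11 for FeO, where the MRP medians were 0.66 and 1.03. Directly between Spns1 KO and FeO the median was 0.20 for the cytosolic set, with 2 genes up and 2 down, and -0.37 for the MRP set, with 0 up and 8 down. Cytosolic ribosomal transcripts are shorter still, with a median of 886 bases. Whether the sets differ was not tested.

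Many MRP genes start within 1000 bases of another gene that is read from the opposite strand, and such head-to-head partners gave a local comparison for 31 of the 78. In 29 pairs the partner is not an MRP gene. In FeO 24 of these 29 MRP genes were upregulated, while 8 partners were upregulated and 7 downregulated (medians 1.02 and -0.04), against 22.4% and 19.7% of all genes. In Spns1 KO 21 MRP genes were upregulated, with 3 partners upregulated and 1 downregulated (medians 0.72 and -0.08), against 14.0% and 7.55% of all genes. The partners are longer, with a median transcript of 2516 bases beside 1280 for the MRP genes. Both members were called up in both models for Mrpl36 and Ndufs6, a complex I subunit whose start lies 29 bases away (Ndufs6 1.97 ± 0.28, edgeR adjusted p = 0.000505, and 1.24 ± 0.28, edgeR adjusted p = 0.00265), and for Mrpl49 and Fau, which encodes a ribosomal protein fusion (1.18 ± 0.26, edgeR adjusted p = 0.00495, and 1.36 ± 0.26, edgeR adjusted p = 0.001). The Spns1 KO calls of Mrpl36 and Mrpl49 were lost in 3 and 6 of 13 fits that left out 1 library and with the trend removed. Ndufb5, another complex I subunit, rose in both models (1.18 ± 0.17, edgeR adjusted p = 0.00052, and 0.83 ± 0.17, edgeR adjusted p = 0.00171) beside Mrpl47, which was called in neither (0.10 ± 0.16 and 0.21 ± 0.16). Exons of these genes overlap by 616 bases on opposite strands, and 13.4% of the 31-base stretches of Mrpl47 also occur in Ndufb5. Psma2, a proteasome subunit, rose in FeO beside Mrpl32 (1.14 ± 0.18, edgeR adjusted p = 0.00051). In the other direction, Zfp189 fell in FeO (-0.94 ± 0.17, edgeR adjusted p = 0.000909) where its neighbour Mrpl50 was just called up (0.58 ± 0.22, edgeR adjusted p = 0.0446). The Mrpl50 call was lost in 7 of 13 fits that left out 1 library, with values of 0.28 to 0.71, and with the length and GC trend removed (0.45, edgeR adjusted p = 0.0664). In FeO 7 MRP genes were upregulated beside a downregulated partner. Mrpl46 and Mrps11, both MRP genes, start 30 bases apart on chromosome 7 and were each called up in both models (Mrpl46 0.62 ± 0.20 and 1.12 ± 0.20, Mrps11 0.59 ± 0.19 and 0.82 ± 0.19), though their transcripts overlap by 173 bases on opposite strands and the sources used here do not state that strand was used in counting. Both Spns1 KO calls were lost in 6 of 13 fits that left out 1 library and with the length and GC trend removed (Mrpl46 0.22, Mrps11 0.14), and Mrps11 then lost its FeO call too (0.36, edgeR adjusted p = 0.0621).

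**Figure D5:**
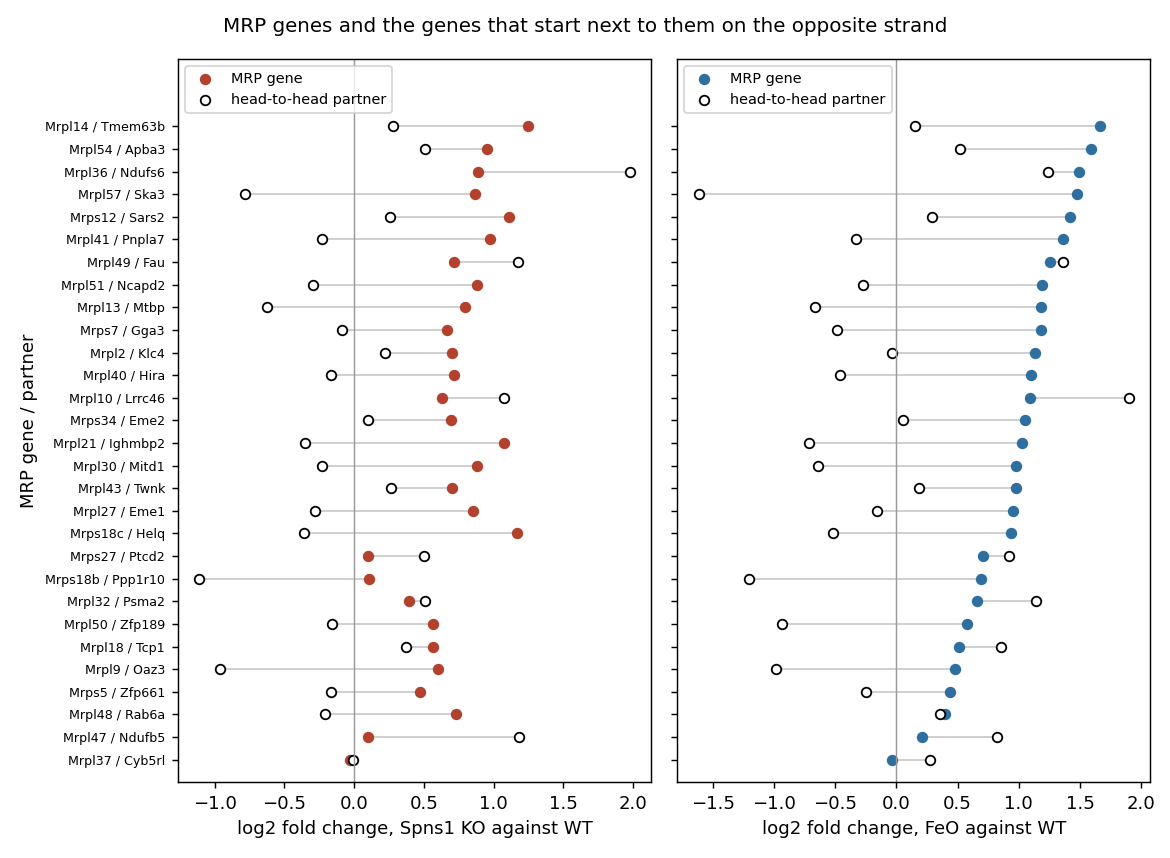
Log2 fold change against WT (horizontal axes) of 29 MRP genes (filled points) and of the gene that starts within 1000 bases on the opposite strand (open points), 1 pair per row joined by a line, in Spns1 KO (left) and FeO (right). In FeO 24 of the 29 MRP genes but 8 of the partners were called up, and the medians were 1.02 and -0.04.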

How the data were processed

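The authors deposited a table of estimated counts per gene, as whole numbers, for 13 libraries of captured kidney RNA. The submitters' processing notes name bcl2fastq 2.19, kallisto 0.44.0, DESeq2 and GRCm38, while the study's methods name STAR, HTSeq and mm10. Which of these made the table, and how transcripts were summed to genes, is not given in the sources used here. Low counts were removed with filterByExpr, and 1 edgeR 4.0.16 quasi-likelihood model with TMM factors was fitted to all groups (R 4.3.3), with Benjamini-Hochberg adjustment over all 16468 genes tested. SE is the log2 fold change divided by the root of F. Totals of 23068023 to 71296474 counts limit precision through counting error only. The p-values set the group difference against the estimated spread between libraries, which includes that error. Groups came from the labels. Positions, lengths and shared 31-base stretches came from GENCODE on GRCm38, and promoters from RefSeq. Alternatives were DESeq2 1.42.0, limma 3.58.1 voom, edgeR's glmTreat, other scaling factors, no filter, fits of the groups compared, removal of length and GC trends (mgcv 1.9.3), a replicate block and leaving out libraries. The fits were tested on simulated data.

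The members and gene lists were chosen with earlier results of these data known. Genes were named by rule: the 6 smallest p in each contrast with WT where counts averaged 100 or more per library, those against the majority, those called between Spns1 KO and FeO, the 3 highest and 3 lowest per kilobase, examples of the structural groups and genes whose names give another place. From other lists came the 2 smallest p in each contrast, and 5 head-to-head partners. Mrpl24, Mrpl37, Mrpl39, Mrps9, Mrpl23, Fbf1, Slc5a3, Nr2c2, Nrf1, Gabpa, Mettl17 and mt-Nd2 are also named, for results that turn on them, after their values were seen.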

Additional observations from a re-analysis of the deposited data

Results flagged for a closer look

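In groups of 4 or 5 libraries, a single library lay apart from the others in 12 of 168 groups examined (7.14%). The limit used is passed about 1 time in 20 by independent normal values. These groups share the same 13 libraries, and many of the genes were chosen by p in these data, so the share cannot be set against chance. The library labelled Spns1 KO 4 accounted for 8 of the 12. It was low for Mrps21 (16.7 CPM, the others 26.4 to 28.2), Mrpl34 (5.61, the others 15.1 to 17), Mrps24 (9.65, the others 17.8 to 19.1), Mrps27 (12.2, the others 19.7 to 20.6), Mrps25 (12.6, the others 20.9 to 21.6) and Gadd45gip1 (6.06, the others 10.5 to 10.8), and in its median over the MRP genes (0.13, the others 0.73 to 0.85), and it was high for Pprc1 (46.2, the others 18.3 to 21.6). WT 4 was low for Mrpl38 (31.1, the others 144 to 186) and high for Mrps25 (13.7, the others 9.92 to 10.3). WT 3 was low for Mrps36 (4.47, the others 6.54 to 7.22), and FeO 3 was low for Mettl17 (11.6, the others 27.8 to 29.6).

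The log2 change differed between the models, by the edgeR contrast of Spns1 KO with FeO, for 13 genes named here. It was lower in Spns1 KO for Mrps6 (-2.0), Mrps30 (-1.0), Mrps23 (-0.93), Mrpl15 (-0.92), Mrpl44 (-0.92), Mrpl20 (-0.72), Psma2 (-0.64), Mrps27 (-0.61) and Mrps2 (-0.58). It was higher for Pprc1 (0.96), Gatb (0.81), Zfp189 (0.77) and Mars2 (0.50).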

How the results depend on the processing

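In Spns1 KO the number of MRP genes upregulated was 49, and 46 to 52 with DESeq2, limma-voom, RLE or upper-quartile factors, no filter or only the groups compared. It was 34 with library totals, where the median of all genes shifted from -0.05 to -0.18, 9 when the fold limit was part of the test (glmTreat), 20 with the length and GC trend removed and 20 without WT 3 and WT 4. Of all genes 10.6%, 5.06%, 10.7% and 7.52% were upregulated in these settings, in that order. Leaving out 1 library gave 27 to 57 (9.18% to 18% of all genes). Leaving out genes with shared sequence gave 30 in Spns1 KO and 41 in FeO. With the trend removed the medians were 0.39 and 0.68, with 2 MRP genes downregulated in each model. Adding the omission of Spns1 KO 4 gave 3 and 2 downregulated and a FeO median of 0.68. MRP genes lower in Spns1 KO than in FeO numbered 8, but 1 with glmTreat, 5 without a filter, 4 with only those groups, 5 without WT 3 and WT 4, 5 without Spns1 KO 4 and WT 4, and 5 to 13 leaving out 1 library, with 5 when Spns1 KO 1, 2 or 4, WT 1 or 2, or FeO 1 or 3 was left out and 13 without FeO 4. The cause was not tested.

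Of the other mitochondrial translation genes 10 were upregulated in Spns1 KO, but 1 with glmTreat, 6 with the trend removed, 16 without Spns1 KO 4 and the trend, 5 without WT 3 and WT 4, 17 without Spns1 KO 4 and WT 4, and 5 to 18 leaving out 1 library. Downregulated there was 1, but 2 with DESeq2, library totals or only the groups compared, 0 with glmTreat, and 1 to 2 leaving out 1 library. In FeO 15 were upregulated, 7 with glmTreat, and 2 downregulated, 0 with glmTreat, 1 without a filter or without WT 3 and WT 4, and 1 to 2 leaving out 1 library.

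Same-numbered libraries of different groups had residual correlations of -0.296 to 0.256 (12 pairs, median -0.051), and differently numbered ones -0.317 to 0.367 (44 pairs, median 0.0235). With so few libraries these values cannot decide whether the numbers mark pairs. The study's methods state that mouse pairs received tamoxifen in parallel and that controls were littermates. The labels do not say which libraries belong together, so the main fit holds no pairing. Fits with a replicate block left out WT 5, whose number has no match in the other groups. With a replicate block Spns1 KO had 49 MRP genes up and 1 down, FeO had 64 up and 1 down, and 0 up and 7 down between the models, and 2 other translation genes fell in Spns1 KO. The replicate block with the trend removed gave 18 MRP genes up in Spns1 KO (median 0.39) and in FeO a median of 0.67 with 2 down, and other translation genes numbered 4 up and 2 down in Spns1 KO and 4 down in FeO.

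Some log2 fold changes in Spns1 KO turned sign. Only Mrps18a (0.52) among these was called, and that call ended. Library totals gave Mrps30 -0.07, Mrps23 -0.03, Mrps27 -0.03, Mrps2 -0.09 and Mrps18b -0.02. The trend removed gave Mrps23 -0.21, Mrpl44 -0.08, Mrps27 -0.10, Mrps2 -0.06, Mrps18a -0.01 and Mrps18b -0.30, and with the replicate block -0.18, -0.14, -0.12, -0.08, 0 and -0.28. Without Spns1 KO 4 and the trend Mrps23 was -0.09 and Mrps18b -0.27, and without WT 3 and WT 4 Mrps30 was -0.04 and Mrps18b -0.08. Leaving out 1 library gave Mrps30 -0.02 to 0.20 and Mrps2 -0.05 to 0.18. In FeO Mars2 was 0.30 with the trend removed, 0.28 with the replicate block added and 0.30 without Spns1 KO 4, and Mrpl23 was 0.79 when summed with its pseudogene. Settings that omit the 2 pairs of WT or mixed libraries, Spns1 KO 4 with the trend, and the pseudogene sum were chosen after seeing the data.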
